A study of Mus musculus with 14 samples.

Results

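The 10 listed genes for histone chaperones and related acidic nuclear proteins were followed in single mouse somatic cell nuclear transfer (SCNT) embryos: the nucleoplasmins Npm1, Npm2 and Npm3, prothymosin alpha (Ptma), and the chaperones Nasp, Asf1a, Chaf1a, Chaf1b, Hira and Daxx. These 10 genes were found among the 20242 gene symbols of the files, as 14 of the 25650 RefSeq entries. They were picked by name, and Ptma and Npm1 were chosen for their rise with trichostatin A (TSA). For these 2 genes every value is therefore given as a description, with no test in any comparison, since each comparison uses embryos the choice was made on. Each library was made from the RNA of 1 embryo at the 2-cell stage, collected at 28 h, which the labels count from nuclear transfer and the paper from egg activation. Nuclei of cumulus cells of B6D2F1 mice were transferred and every embryo, controls included, was activated in strontium chloride with cytochalasin B. TSA, an inhibitor of histone deacetylases, was given at 50 nM from 0 to 8 h after the start of activation, and vitamin C (VC), a cofactor of dioxygenases that demethylate histones and DNA, at 10 µg/ml from 0 to 8 h or from 8 to 15 h. The groups were control (3 embryos), VC(0-8h) (1 embryo), VC(8-15h) (2 embryos), TSA(0-8h) (3 embryos), TSA(0-8h)+VC(0-8h) (2 embryos) and TSA(0-8h)+VC(8-15h) (3 embryos). An embryo is the replicate. The labels tie no embryo to a day or donor, while the paper states that nuclear transfer for the TSA(0-8h)+VC(8-15h) embryos was done in separate experiments, without saying which embryo came from which or what the other groups shared with them. The p-values thus measure the spread between these embryos. Below, TSA-only, TSA/VC-early and TSA/VC-late stand for TSA(0-8h), TSA(0-8h)+VC(0-8h) and TSA(0-8h)+VC(8-15h), and VC-early and VC-late for VC(0-8h) and VC(8-15h) alone. The words late VC stand for all 5 embryos given VC from 8 to 15 h, with or without TSA.

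Histone chaperones bind histones that are not in nucleosomes and hand them on during transport, storage and nucleosome assembly. The CAF-1 complex, with its large subunit Chaf1a and middle subunit Chaf1b, places newly made H3.1 and H4 behind the replication fork, while Hira and Daxx place the variant H3.3 outside replication, and Asf1a hands H3 and H4 to both CAF-1 and Hira. Npm2 is the nucleoplasmin of the egg, and H3.3 from the egg is placed on transplanted nuclei. RNA in a 2-cell embryo is a mixture of egg transcripts not yet degraded and transcripts of the activated genome, and the values of a whole embryo do not separate these sources.

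Values are RPKM, reads on the exons of an entry per kilobase, scaled to the reads counted in the library. The reads counted ranged from 3021540 to 13589389 per embryo, and 3 reads on 1 kb were worth between 0.221 and 0.993 RPKM. Between 3322 and 6728 entries per embryo reached 1 RPKM. These floors cover counting error only, since reads amplified from 1 embryo are not independent molecules. All 11 oocyte genes listed as markers reached 1 RPKM in some embryo, with a summed level of 100 to 1299 RPKM, and so did all 11 listed genes of the 2-cell stage, at 5.07 to 1173 RPKM. Of 13 cumulus cell genes, 3 reached 1 RPKM in any embryo, with a summed level of 0 to 144 RPKM, nearly all of it Amhr2, while Inha, Inhba, Fshr and Hsd3b1 were at 0 in every embryo. The summed cumulus level had a median of 6.45 RPKM with TSA and 0.958 RPKM without, and its part in the results was not tested.

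All 10 genes reached 10 RPKM in at least 1 embryo, but only some were detected in each. Npm1, Ptma, Nasp and Chaf1a were at 1 RPKM or more in all 14 embryos, though their levels differed widely between embryos. Of the 9480 genes in the whole table that reached 10 RPKM in some embryo, 8.91% were at 1 RPKM or more in all 14. Their median was 6 embryos, against a median of 8.5 embryos for the 10 members. The members' median includes Ptma and Npm1, which were chosen for their rise with TSA and were seen in all 14. Nothing is therefore read from this contrast. By the median over embryos, with entries summed per gene, the order was Npm1 at 435 RPKM, Ptma at 348, Nasp at 131, Chaf1a at 105, Npm2 at 13.7, Hira at 3.21, Chaf1b at 0.573, Daxx at 0.228, Asf1a at 0.144 and Npm3 at 0.134 RPKM. This order depends on the summing. By the median of the longest entry alone, Npm1 NM_008722 was at 306 RPKM, below Ptma, and Nasp NM_016777 at 84.9, below Chaf1a. No gene was tested against another, and the summed levels of these genes overlapped in range. Npm1 ranged from 18.3 to 3299 RPKM, Ptma from 39.9 to 1684, Nasp from 8.90 to 267 and Chaf1a from 1.17 to 188 RPKM. The other 6 genes were each below 1 RPKM in some embryos and above 40 RPKM in at least 1.

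**Figure D1:**
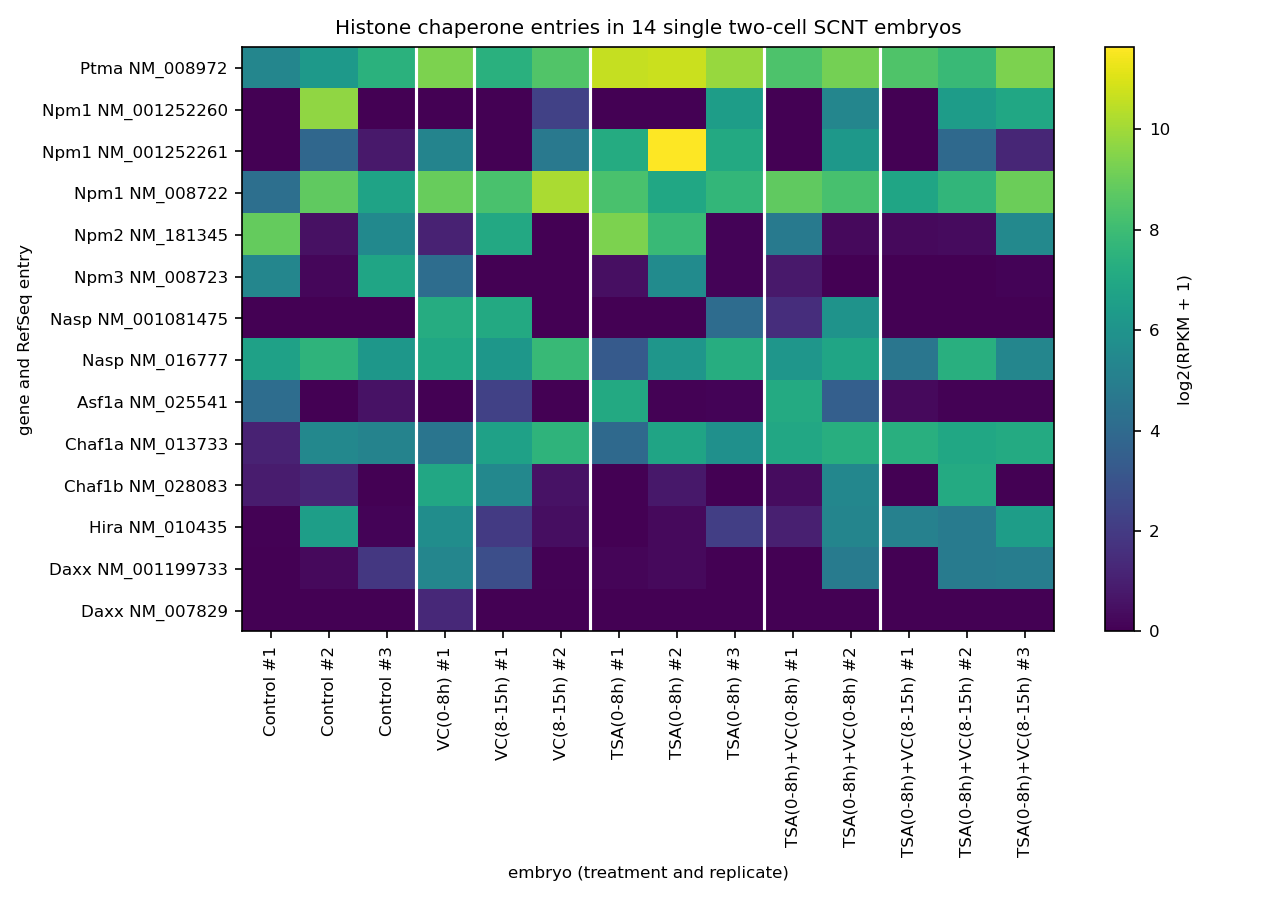
Level of each of the 14 RefSeq entries (rows) in each of the 14 embryos (columns, grouped by treatment with white lines), as log2(RPKM + 1) by colour, where # gives the replicate number. The rows of Ptma, Npm1 NM_008722, Nasp NM_016777 and Chaf1a are filled in every column, while the other rows are dark in some embryos and bright in others.

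Ptma is a small, very acidic nuclear protein that binds histones, and its gene is on chromosome 1 of mm9 from 88423311 to 88427273. It had 1 entry (NM_008972) with a recovered length of 1192 bases. It was at 39.9, 77.8 and 172 RPKM in the 3 control embryos and at 1549, 1684 and 927 RPKM in the 3 TSA-only embryos. The lowest TSA-only embryo was thus above the highest control embryo, which is the difference the gene was chosen for. In reads, this was 258, 637 and 2794 in control embryos and 5578, 15684 and 12981 in TSA-only embryos.

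Ptma was at 340, 233 and 652 RPKM in the TSA/VC-late embryos and at 337 and 594 RPKM in the TSA/VC-early embryos, between the control and the TSA-only embryos. Without TSA it was at 652 RPKM in the VC-early embryo and at 165 and 356 RPKM in the VC-late embryos. The 5 embryos with TSA and VC and the 3 embryos with VC alone thus overlapped almost wholly, at 233 to 652 and 165 to 652 RPKM. Across all treatments the 8 embryos with TSA had a lowest, median and highest value of 233, 623 and 1684 RPKM, and the 6 without TSA 39.9, 169 and 652 RPKM.

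The fitted log2 difference of Ptma, on the log2(RPKM+1) scale, was 4.03 (standard error 0.75) between TSA-only and control embryos, 2.18 (0.77) between TSA/VC-late and control embryos, and -1.85 (0.47) between TSA/VC-late and TSA-only embryos. These 3 differences share embryos, and no test of them is given. Over all 14 embryos, with the VC window in the model, it was 1.91 (0.55) for TSA. The library identifiers fall into 3 pools, and the sources used here do not say what a pool shared. Pool and replicate numbers were the same in every group but VC-early, so pool cannot be told apart from replicate in those groups. The mean log2 difference between embryos with and without TSA was 2.77, 1.22 and 2.17 within pools 1, 2 and 3. The pool 3 value rested on 2 embryos with TSA and 1 without. In pool 2 the embryo with TSA was the higher in 6 of 9 pairs, against 6 of 6 in pool 1 and 2 of 2 in pool 3. With late VC against no VC, where the embryos without VC are the control and TSA-only embryos that the choice used, Ptma differed by -0.27 (standard error 0.61).

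**Figure D2:**
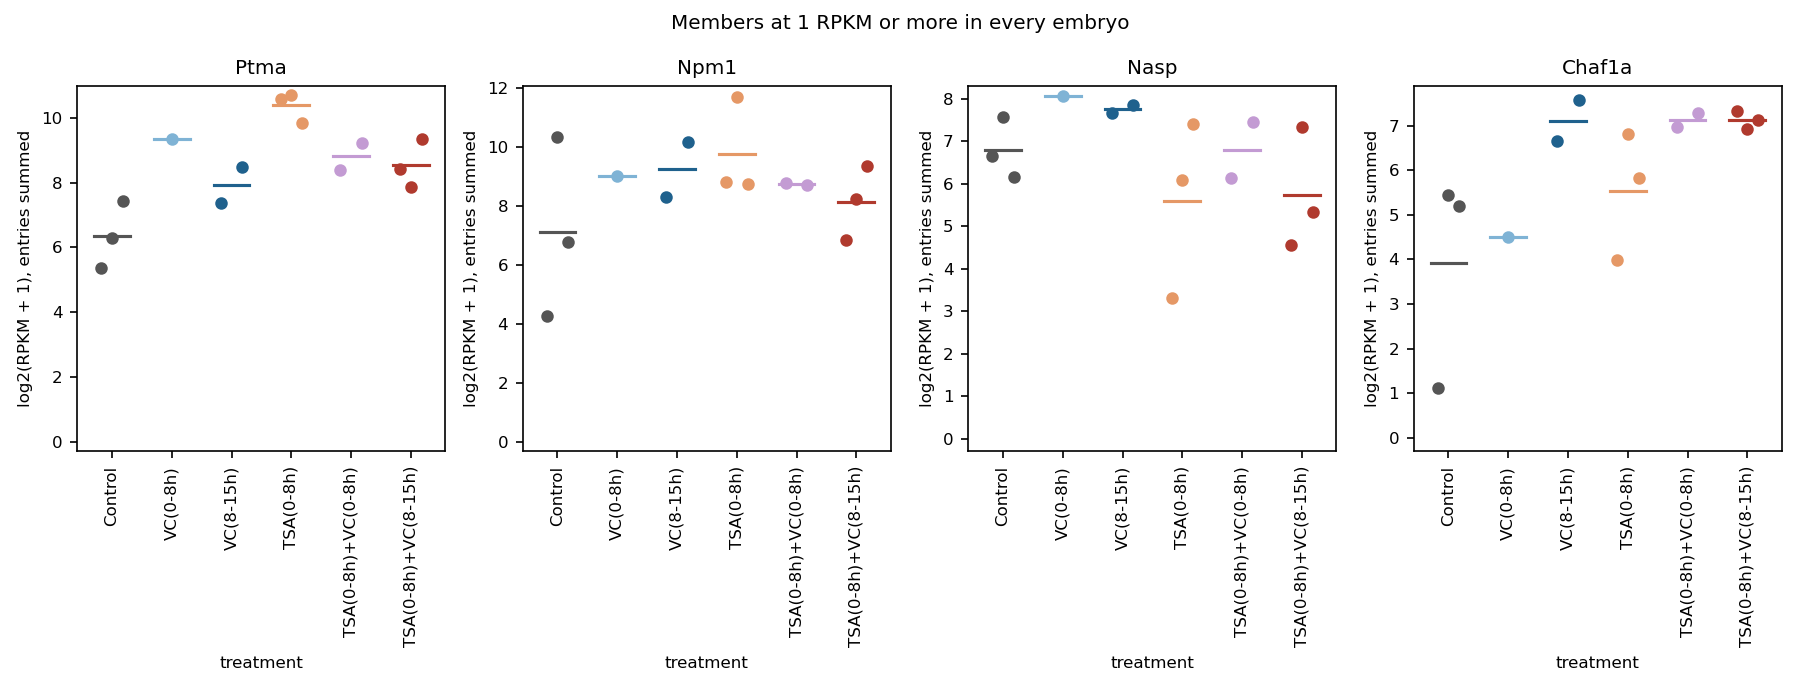
Summed level of Ptma, Npm1, Nasp and Chaf1a as log2(RPKM + 1) in the 6 treatments. Each point is 1 embryo and the bar is the mean of the treatment; the 3 TSA(0-8h) points of Ptma lie above all its other points, and the 3 TSA(0-8h)+VC(8-15h) points of Chaf1a lie above its 3 control points.

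Npm1, nucleophosmin, is an abundant nucleolar chaperone that also takes part in ribosome assembly. Its gene is on chromosome 11 of mm9 from 33052287 to 33063206, on the minus strand, and it had 3 entries whose values went different ways. The lengths recovered from the steps between RPKM values were 1422 bases for NM_008722, 296 bases for NM_001252261 and 41 bases for NM_001252260. Lengths as short as the last 2 are those of a stretch of the gene rather than of a whole transcript. Among all 1163 genes with 2 or more recovered entries, the median length of the shortest entry was 531 bases against 3413 for the longest, and in 55.9% the shortest had under 25% of the longest. Which exons make up a short entry is not given in the sources used here. The nearest annotated piece of Npm1 to 296 bases in the mm9 annotation is the last exon of transcript Npm1-002, an alternative end of 294 bases at chr11:33054927-33055220.

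Npm1 was chosen for its rise with TSA, and of its entries only the 296-base entry parted TSA-only from control embryos. NM_001252261 was at 0, 13.8 and 0.746 RPKM in control embryos, on 0, 28 and 3 reads, and at 141, 3180 and 131 RPKM in TSA-only embryos, on 126, 7355 and 457 reads. The TSA-only embryos were all above the control embryos, at a fitted log2 difference of 7.05 (standard error 1.81), given without a test. It was at 0, 14.8 and 1.38 RPKM in TSA/VC-late embryos and was at 0 and 73.7 RPKM in TSA/VC-early embryos. In embryos with VC alone it was at 36.5 RPKM for VC-early and at 0 and 25.2 RPKM for VC-late.

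The 1422-base entry did not part the groups. NM_008722 was at 18.3, 439 and 107 RPKM in control embryos and at 311, 119 and 210 RPKM in TSA-only embryos, so that all the TSA-only values lay within the range of the control values. It was at 113, 204 and 525 RPKM in TSA/VC-late embryos, at 440 and 301 RPKM in TSA/VC-early embryos, at 483 RPKM in the VC-early embryo and at 314 and 1129 RPKM in VC-late embryos. Its highest value was thus in an embryo without TSA. The fitted log2 difference was 1.03 (standard error 1.13) between TSA-only and control embryos and -0.11 (0.62) for TSA over all 14 embryos.

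The 41-base entry, NM_001252260, was at 846 RPKM in control replicate 2 on 238 reads, at 0 in 8 embryos and between 3.71 and 121 RPKM in the other 5. Because RPKM divides by length, these short stretches weighed heavily in the sum over entries. In TSA-only replicate 2, NM_001252261 held 84.7% of the Npm1 reads, and in the other 13 embryos NM_008722 held 87.5% to 100%. With the reads of the 3 entries divided by their joined length of 1759 bases, a measure chosen after the values were seen, Npm1 was at 275, 632 and 194 RPKM in TSA-only embryos and at 14.8, 377 and 87.0 RPKM in control embryos. On this measure the groups overlapped, at a log2 difference of 2.01. Reads from processed copies of Ptma and Npm1 elsewhere in the genome cannot be told apart from reads of these genes, as the handling of reads with several matches is not given in the sources used here.

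**Figure D3:**
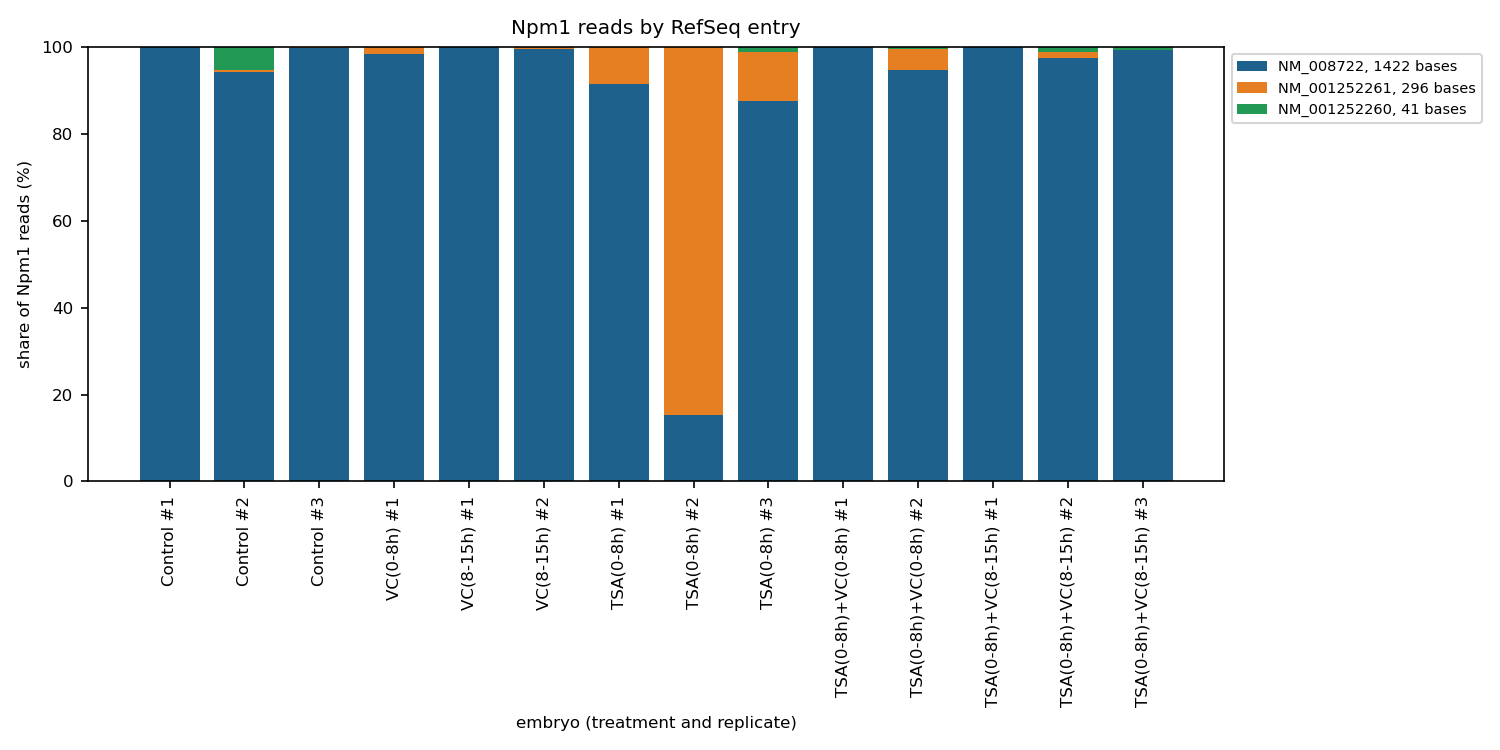
Share of the Npm1 reads of each embryo (percent, stacked bars) that fell on each of the 3 RefSeq entries, with the recovered length of each entry. The bar of TSA(0-8h) replicate 2 stands apart, with 84.7% of its reads on the 296-base entry.

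Npm2 and Npm3, the other nucleoplasmins, were either high or at the floor. Npm2, the nucleoplasmin of the egg, was at 476, 0.438 and 45.2 RPKM in control embryos and at 656, 239 and 0.0853 RPKM in TSA-only embryos, where the last value rests on 1 read. It was at 0.231, 0.258 and 43.3 RPKM in TSA/VC-late embryos, at 26.1 and 0.230 RPKM in TSA/VC-early embryos, at 1.18 RPKM in the VC-early embryo and at 127 and 0 RPKM in VC-late embryos. Every treatment with more than 1 embryo thus held both a high and a near-0 embryo, and the fitted log2 difference for TSA over all 14 embryos was 0.12 (standard error 1.499, adjusted p = 0.9995, limma). Npm2 was at 10 RPKM or more in every embryo of pool 1 other than the TSA/VC-late embryo, in 1 of 6 embryos of pool 2 and in 2 of 3 of pool 3.

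Npm3 was at 39.7, 0.169 and 113 RPKM in control embryos, at 16.6 RPKM in the VC-early embryo and at 0.385, 48.7 and 0.0989 RPKM in TSA-only embryos, and at 0.713 and 0 RPKM in TSA/VC-early embryos. In all 5 embryos with late VC it was at or near 0: it had no read in either VC-late embryo or in TSA/VC-late replicates 1 and 2, and 1 read in replicate 3, which is 0.0947 RPKM. The 6 embryos without VC were at 0.0989 to 113 RPKM, and 3 of those 6 also had only 1 read. The fitted log2 difference was -2.92 (standard error 1.40, adjusted p = 0.763, limma), which did not pass the adjusted threshold.

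Nasp, which guards the soluble pool of H3 and H4, was measured mainly by NM_016777, an entry of 3087 bases. It was at 99.4, 188 and 70.4 RPKM in control embryos, 8.90, 67.4 and 152 in TSA-only embryos and 22.4, 162 and 39.7 in TSA/VC-late embryos. It was at 67.3 and 113 RPKM in TSA/VC-early embryos, 122 in the VC-early embryo and 70.1 and 230 in VC-late embryos. The lowest 3 embryos all had TSA, but the groups overlapped, and the log2 difference for TSA over 14 embryos was -1.09 (standard error 0.84, adjusted p = 0.978, limma). The second entry, NM_001081475, of 166 bases, was at 0 in 9 embryos and reached 146 RPKM in the VC-early embryo, 132 in VC-late replicate 1 and 62.5 in TSA/VC-early replicate 2.

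The subunits of CAF-1 differed in how often they were seen. Chaf1a was at 1.17, 42.3 and 35.9 RPKM in control embryos and at 159, 120 and 139 RPKM in TSA/VC-late embryos. It was at 14.8, 111 and 55.4 RPKM in TSA-only embryos, at 123 and 155 RPKM in TSA/VC-early embryos, at 21.8 RPKM in the VC-early embryo and at 99.3 and 188 RPKM in VC-late embryos. The 5 embryos with late VC were all at 99.3 RPKM or more, and of the 6 without VC only TSA-only replicate 2 was. The log2 difference between TSA/VC-late and control embryos was 3.21 (standard error 1.32, adjusted p = 0.190, limma), and that between late VC and no VC over 14 embryos was 2.27 (standard error 1.02, adjusted p = 0.757, limma). Neither passed the adjusted threshold. The former rested in part on control replicate 1, at 1.17 RPKM: without that embryo it was 1.80 (adjusted p = 0.296, limma), and over all alternatives its adjusted p ranged from 0.165 to 0.716.

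Chaf1b was at 126 RPKM in the VC-early embryo, 42.2 in VC-late replicate 1, 40.2 in TSA/VC-early replicate 2 and 137 in TSA/VC-late replicate 2. In the other 10 embryos it was between 0 and 1.29 RPKM, all 3 control and all 3 TSA-only embryos among them. The 4 embryos with Chaf1b above 10 RPKM all had VC, and had 5539 to 6728 entries at 1 RPKM or more, against 3322 to 5720 in the other 10. The log2 difference between late VC and no VC was 2.27 (standard error 1.54, adjusted p = 0.829, limma).

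The promoters of Ptma, Chaf1a and Chaf1b are shown, the first as that of a gene chosen for its rise with TSA and the others as those of 2 partner subunits with unlike detection. Each runs from 250 bases before to 50 after the start of the gene in RefSeq (GRCm38.p6), on the strand of the gene, and capitals mark motifs read on either strand. These are the GC box, spelled GGGCGG, the CCAAT box, which has those letters, and the E-box, spelled CACGTG. In these promoters no match overlapped another. They lie at chr1:86526307-86526606, chr17:56040166-56040465 and chr16:93883651-93883950, all on the plus strand.
Ptma: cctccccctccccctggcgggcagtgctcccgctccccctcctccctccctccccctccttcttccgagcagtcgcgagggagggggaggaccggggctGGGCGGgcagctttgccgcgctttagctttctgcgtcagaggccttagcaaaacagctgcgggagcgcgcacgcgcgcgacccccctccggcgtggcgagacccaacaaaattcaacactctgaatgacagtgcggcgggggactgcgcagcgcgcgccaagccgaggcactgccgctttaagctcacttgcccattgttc
Chaf1a: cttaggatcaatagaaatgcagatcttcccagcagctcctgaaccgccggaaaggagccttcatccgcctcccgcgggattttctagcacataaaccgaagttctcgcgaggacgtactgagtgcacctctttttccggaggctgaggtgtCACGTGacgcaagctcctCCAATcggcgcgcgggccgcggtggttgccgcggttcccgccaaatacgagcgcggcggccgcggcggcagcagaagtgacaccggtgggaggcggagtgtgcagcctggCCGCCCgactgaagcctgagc
Chaf1b: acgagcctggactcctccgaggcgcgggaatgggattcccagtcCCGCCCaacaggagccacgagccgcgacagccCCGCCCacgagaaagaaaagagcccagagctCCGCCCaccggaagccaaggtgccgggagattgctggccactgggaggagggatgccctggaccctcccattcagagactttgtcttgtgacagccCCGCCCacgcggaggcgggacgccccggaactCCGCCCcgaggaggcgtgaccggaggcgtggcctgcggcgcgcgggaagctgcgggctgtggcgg

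Of the 10 members, 8 were in the promoter table, all but Npm1 and Npm2. A GC box was found in 7 of the 8 (35.9% of all 27018 promoters, both strands searched) and a CCAAT box in 4 (37.9%). The E-box was in Chaf1a alone (7.24%), and TATAAA in none (14.2%). Chaf1b had 5 GC boxes, against 1 each in Ptma and Chaf1a, and Nasp was the member without one. A match is a description of the letters and not of a site in use.

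The H3.3 chaperones Hira and Daxx were at 1 RPKM or more in 9 and 6 of the 14 embryos. Hira was at 33.6, 27.4 and 88.6 RPKM in the 3 TSA/VC-late embryos and at 0, 0.226 and 3.53 RPKM in the 3 TSA-only embryos. In control embryos it was at 0.0407, 91.8 and 0.0812 RPKM, so that 1 control embryo was as high as any treated embryo. It was at 1.01 and 38.0 RPKM in TSA/VC-early embryos, 51.1 in the VC-early embryo and 2.89 and 0.336 in VC-late embryos. The log2 difference between TSA/VC-late and TSA-only embryos was 4.65 (standard error 1.55, adjusted p = 0.103, limma), and between TSA/VC-late and control embryos 3.24 (standard error 1.92, adjusted p = 0.399, limma). With 5 RPKM as the minimum, the former had an adjusted p = 0.0181 (limma), and over all 13 alternatives it ranged from 0.0181 to 0.720. In both comparisons Hira passed the filter only through the TSA/VC-late embryos, where it was high, also with 5 RPKM as the minimum. These p-values thus depend on the filter, and no difference is read from them.

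Daxx, in the entry NM_001199733, was at 0, 0.217 and 2.72 RPKM in control embryos, 0.123, 0.239 and 0.0317 in TSA-only embryos and 0, 27.7 and 30.0 in TSA/VC-late embryos. It was at 38.96 RPKM in the VC-early embryo, 5.98 and 0.0567 in VC-late embryos and 0 and 27.9 in TSA/VC-early embryos. Its second entry, NM_007829, was at 1.52 RPKM in the VC-early embryo and at 0 in the other 13. The log2 difference of Daxx between late VC and no VC was 2.10 (standard error 1.43, adjusted p = 0.829, limma).

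Asf1a was at 133 RPKM in TSA-only replicate 1, 137 in TSA/VC-early replicate 1, 16.7 in control replicate 1 and 10.6 in TSA/VC-early replicate 2. In the other 10 embryos it was between 0 and 3.72 RPKM, and in the 3 TSA/VC-late embryos it rested on 1 or 2 reads. The 3 highest values, and the fifth at 3.72 RPKM, were in embryos of pool 1. For TSA over 14 embryos the log2 difference was 1.08 (standard error 1.33, adjusted p = 0.985, limma).

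**Figure D4:**
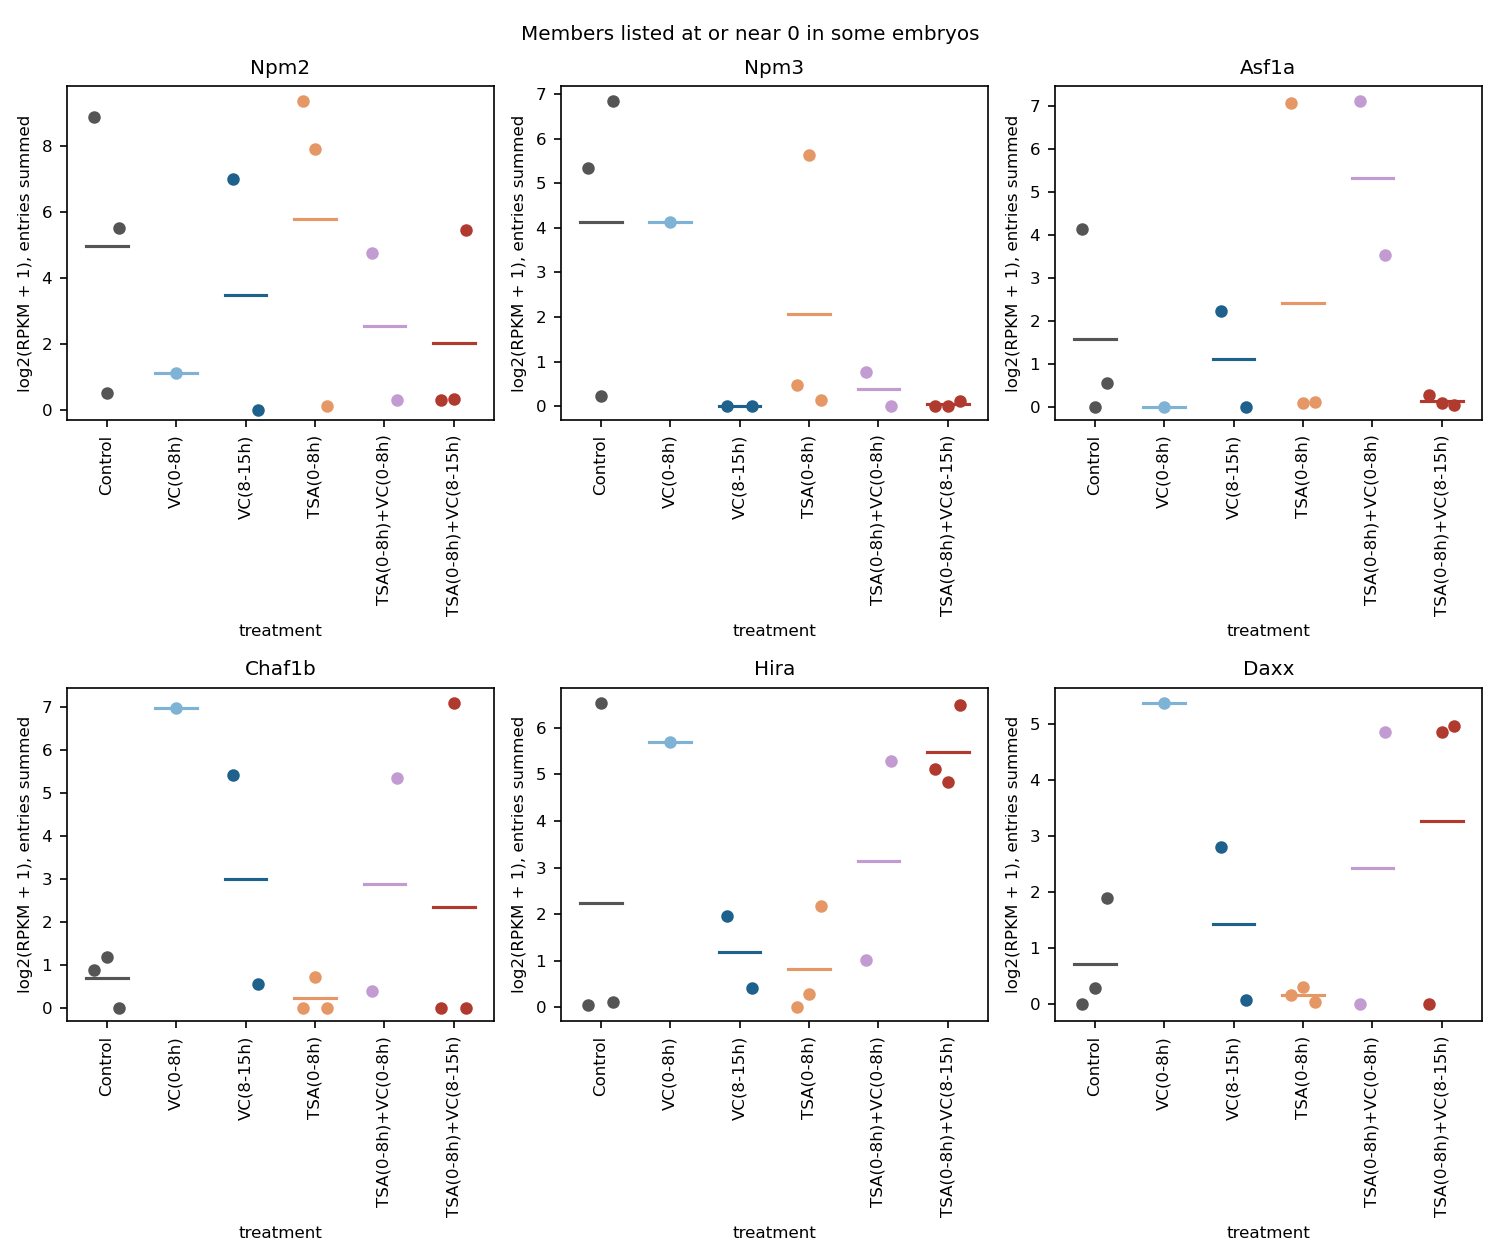
Summed level of Npm2, Npm3, Asf1a, Chaf1b, Hira and Daxx as log2(RPKM + 1) in the 6 treatments. Each point is 1 embryo and the bar is the mean of the treatment; in most treatments the points split into some near 0 and some high, while the 3 TSA(0-8h)+VC(8-15h) points of Hira are all high and the 5 late VC points of Npm3 are all near 0.

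The number of members at 1 RPKM or more was 4 in VC-late replicate 2 and 9 in the VC-early embryo and VC-late replicate 1. It was 7, 6 and 7 in control embryos, 6, 6 and 5 in TSA-only embryos, 7 and 8 in TSA/VC-early embryos and 5, 7 and 7 in TSA/VC-late embryos. The embryo with the fewest members seen also had the fewest entries at 1 RPKM, 3322, and the 3 embryos with 8 or 9 members had 6244, 6342 and 6728, the highest 3 of the 14. How far the number of entries seen sets the level of the members not detected in every embryo was not tested. In bulk RNA of an embryo, fewer transcripts per cell and fewer cells with the transcript cannot be told apart.

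In tests over all entries, 0 entries of the 8 members other than Ptma and Npm1 had an adjusted p under 0.05 in any of the 5 comparisons (limma). Ptma and Npm1 are left out of the counts that follow, as each comparison uses embryos on which they were chosen. Between TSA-only and control embryos, 2 entries of these members passed the filter of 1 RPKM, and 0 of them had an adjusted p under 0.05 (0.119% of all 2529 entries, limma). At an unadjusted p under 0.05, 0 were higher (5.46% of all entries) and 0 were lower (9.73%). Chaf1a differed by 1.62 (standard error 1.90, adjusted p = 0.783, limma) and Nasp NM_016777 by -1.24 (standard error 1.37, adjusted p = 0.766). Between TSA/VC-late and control embryos, 3 entries passed the filter, and 0 had an adjusted p under 0.05 (0.0293% of all 3416 entries, limma). At an unadjusted p under 0.05, 1 was higher (14.7%), which was Chaf1a, and 0 were lower (3.72%).

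Between TSA/VC-late and TSA-only embryos, 3 entries passed the filter, and 0 had an adjusted p under 0.05 (0% of all 3243 entries, limma). At an unadjusted p under 0.05, 1 was higher (16.4%), which was Hira, and 0 were lower (2.22%). Hira passed the filter only through the TSA/VC-late embryos, where it was high. The median log2 difference of all entries tested was 1.18 in this comparison, 0.78 between TSA/VC-late and control embryos and -0.38 between TSA-only and control embryos. These medians depend on the filter, since an entry high in only 1 group can pass it. Whether the differences of Hira and Chaf1a exceed such a shift was not tested.

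In the fit of all 14 embryos, 9 entries of the 8 members were tested, of 8249 in all. For any TSA against no TSA, 0 had an adjusted p under 0.05 (0.0242% of all entries, limma), and at an unadjusted p under 0.05, 0 were higher (1.96%) and 0 were lower (2.63%). For late VC against no VC, 0 had an adjusted p under 0.05 (0.0242%, limma). At an unadjusted p under 0.05, Chaf1a was higher (5.18%) and Npm3 was lower (1.14%). The median log2 difference was 0.41 over all entries and 0.86 over these 9 entries for late VC, and -0.01 and -0.17 for TSA. For late VC, Npm1 NM_001252261 differed by -3.35 (standard error 1.62), given without a test.

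**Figure D5:**
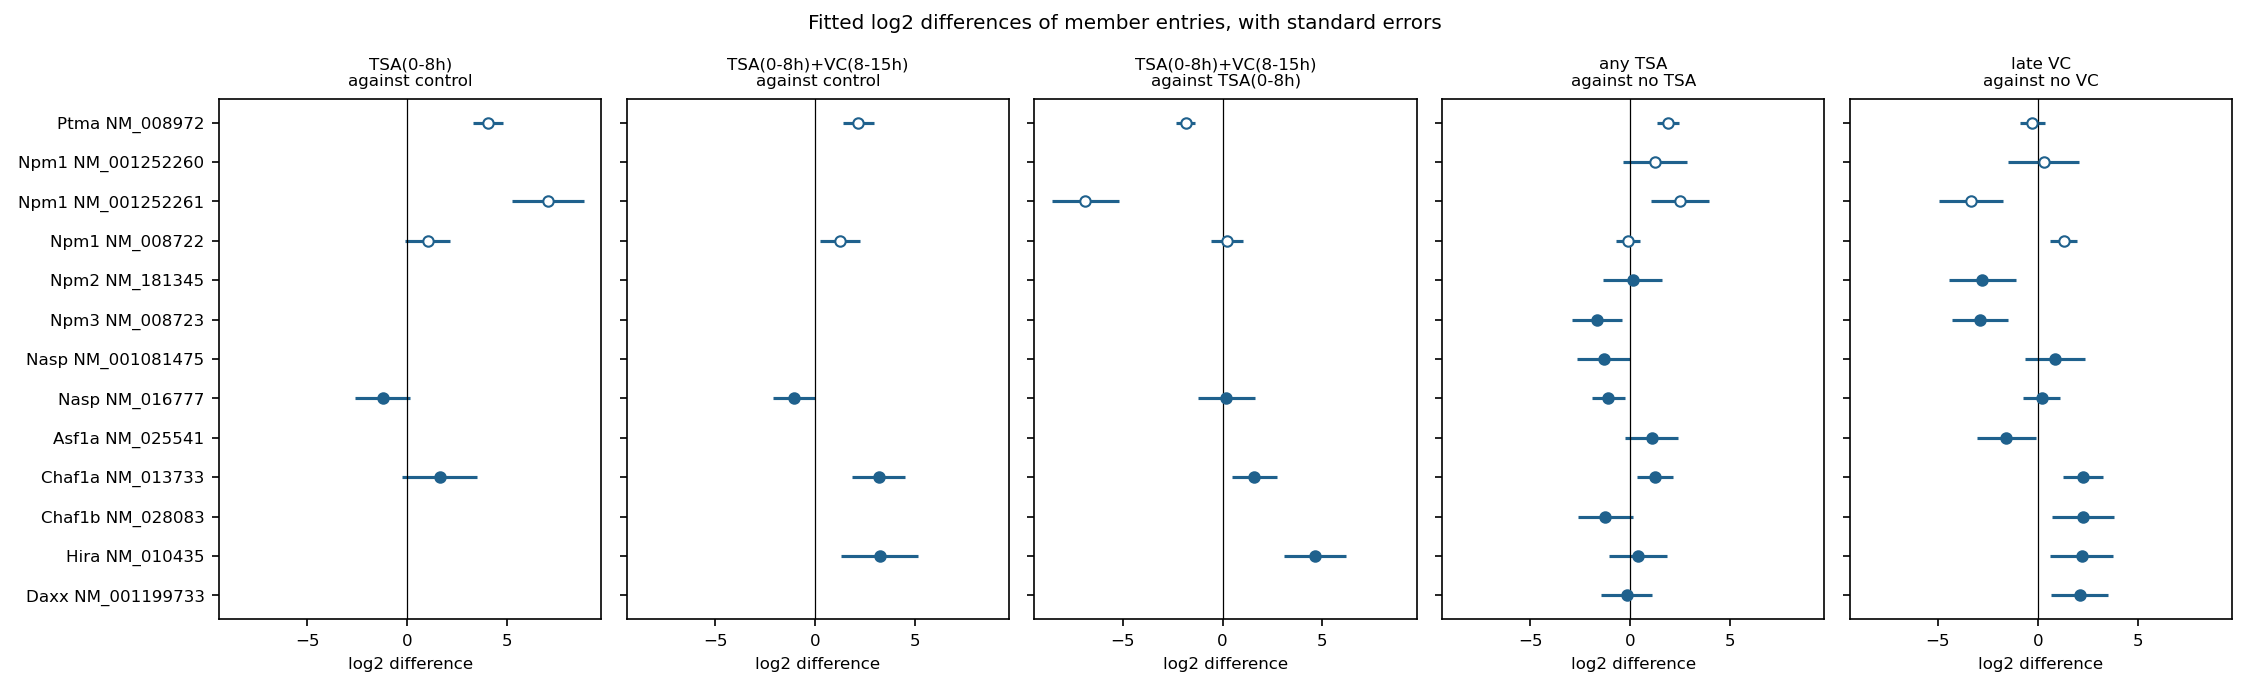
Fitted log2 differences of the member entries tested (points, with bars of 1 standard error) in the 5 comparisons, on the log2(RPKM + 1) scale. Open points are Ptma and Npm1, for which no test is given in any comparison; Ptma lies at 4.03 in the first panel and at -1.85 in the third.

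Of 35 other genes for histone chaperones and acidic nuclear proteins, 19 to 32 were tested in a comparison, and 0 had an adjusted p under 0.05 in any of the 5 (limma). At an unadjusted p under 0.05 (limma), 1 of 19 genes was higher in TSA-only than control embryos (5.46% of all entries) and 0 were lower (9.73%). For TSA/VC-late against control, 1 of 21 was higher (14.7%) and 0 were lower (3.72%). Against TSA-only, 3 of 22 were higher in TSA/VC-late embryos (16.4%) and 0 were lower (2.22%). In the fit of 14 embryos, 2 of 36 entries were higher with TSA (1.96%) and 1 was lower (2.63%). With late VC, 3 of 36 were higher (5.18%) and 0 were lower (1.14%). The genes named next are those behind these counts, and nothing is read from them about the set. Set, an acidic inhibitor of histone acetylation, was at 71.7 to 651 RPKM in TSA-only embryos and 7.16 to 121 RPKM in control embryos, in the entry NM_001204875 (log2 difference 3.44, standard error 1.36, adjusted p = 0.210, limma). It differed by 3.19 (standard error 1.14, adjusted p = 0.135) between TSA/VC-late and the same control embryos. For TSA over all 14 embryos it differed by 1.86 (standard error 0.78, adjusted p = 0.974, limma), and it reached 522 RPKM in an embryo without TSA. Another entry of Set, NM_023871, differed by 2.09 there (standard error 1.27, adjusted p = 0.974, limma).

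Ipo4, an importin that carries H3 and H4 into the nucleus, was at 41.8 to 99.1 RPKM in TSA/VC-late embryos and 0.118 to 0.550 RPKM in TSA-only embryos (log2 difference 5.82, standard error 1.57, adjusted p = 0.0638, limma). Nap1l4, a chaperone of H2A and H2B, differed by 5.47 (standard error 1.72, adjusted p = 0.0906) and Rbbp7, a histone-binding protein of several chromatin complexes, by 4.19 (standard error 1.65, adjusted p = 0.165) in the same comparison. Ipo4 and Nap1l4 passed the filter there only through the TSA/VC-late embryos, where they were high, so their p-values depend on the filter. For late VC against no VC, Ipo4 differed by 3.04 (adjusted p = 0.763) and Rbbp7 by 2.55 (adjusted p = 0.752). The subunits of FACT, which moves H2A and H2B, had differences of opposite sign with TSA, neither past the adjusted threshold. Ssrp1 NM_001136081 differed by -4.43 (adjusted p = 0.742, limma), and its other entry, NM_182990, by only -0.94 (adjusted p = 0.985). Supt16 differed by 2.66 (adjusted p = 0.974). For late VC, Ssrp1 NM_001136081 differed by 3.40 (adjusted p = 0.756).

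The entries most like Ptma over the 14 embryos, among 4616 entries at 1 RPKM or more in at least 7 of them, were Hnrnpf NM_001166428 (Spearman correlation 0.855), Rbm5 NM_148930 (0.846) and Larp1b NM_001040399 (0.842). Among the members, Npm1 NM_001252261 had a correlation with Ptma of 0.796, which follows in part from the choice of both for their rise with TSA, and the others ranged from -0.270 for Nasp NM_016777 to 0.218 for Npm1 NM_008722. The entries most like Npm1 NM_008722 were Bptf NM_176850 (0.842), Snapc2 NM_133968 (0.783) and Eef1a1 NM_010106 (0.780). The correlation between the long and the 296-base entry of Npm1 was 0.113. These are descriptions over embryos that share pools and differ in depth.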

How the data were processed

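RNA of 14 single SCNT embryos was sequenced as single-end reads. The authors trimmed the reads, removed adaptors with cutadapt, mapped them to mm9 with TopHat, counted reads on exons and deposited RPKM values, in which counts are divided by the library total and the transcript length. Members and gene lists were chosen with earlier results of these data known. Groups came from the labels and pools from the library identifiers. Reads and entry lengths were worked out from the size of 1 read in RPKM, tested on simulated data; 14506 of 14532 entries gave whole reads.

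Entries at 1 RPKM or more in all 3 embryos of either group, or in 3 of 14 embryos, were compared on log2(RPKM+1) with limma 3.58.1 (R 4.3.3, trend, Benjamini-Hochberg, threshold 0.05), tested on simulated data; the 14-embryo fit had the VC window as a covariate. The authors used edgeR on counts, which were not used here. All 10 members were named in every embryo, other chaperone genes at an unadjusted p under 0.05, and the 3 entries most like Ptma and Npm1. Alternatives were a pseudocount of 0.1, no filter, a minimum of 5 RPKM, median-ratio scaling, no trend, a replicate block, summed entries, the pool as a covariate and leaving out each embryo. Python 3.11.15, numpy 2.4.6, pandas 2.3.3 and matplotlib 3.10.9 were used.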

Additional observations from a re-analysis of the deposited data

Results flagged for a closer look

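In groups of 8 embryos with TSA and 6 without, 10 of the 20 sets of summed levels had an embryo that stood apart from its neighbours by more than the 95% limit of Dixon's test; chance gives about 1 in 20. Npm1 was at 3299 RPKM in TSA(0-8h) replicate 2, with 648 as the next value among embryos with TSA. Of the 3299 RPKM, 3180 came from the 296-base entry. With the reads divided by the joined length of the entries, that embryo was at 632 RPKM and the next at 428. Dixon's test was not run on that measure. Npm2 was at 656 RPKM in TSA(0-8h) replicate 1 (next 239), and at 476 RPKM in control replicate 1 (next 127 among embryos without TSA). Npm3 was at 48.7 RPKM in TSA(0-8h) replicate 2 (next 0.713) and at 113 RPKM in control replicate 3 (next 39.7). Asf1a was at 16.7 RPKM in control replicate 1 (next 3.72). Chaf1b was at 137 RPKM in TSA(0-8h)+VC(8-15h) replicate 2 (next 40.2) and at 126 RPKM in the VC(0-8h) embryo (next 42.2). Hira was at 88.6 RPKM in TSA(0-8h)+VC(8-15h) replicate 3 (next 38.0). Daxx was at 40.5 RPKM in the VC(0-8h) embryo (next 5.98). The test assumes normally distributed values of a single group. These sets join several treatments, and the values are skewed on the RPKM scale, with many near 0 and few high. The 10 of 20 sets are thus not read against the 1 in 20.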

How the results depend on the processing

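Of the 773 refitted values of member differences, 746 kept their direction and side of the threshold or, where no test is given, moved by less than the spread between embryos. None of the 23 values of tested entries that changed sign had passed the threshold.

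For TSA(0-8h) against control (3 entries past the threshold), the count was 104 with a pseudocount of 0.1 and 127 with a minimum of 5 RPKM. It was 0 with no filter on low values, median-ratio scaling, no trend or entries summed per gene, and 0 to 2 when 1 embryo was left out. For TSA(0-8h)+VC(8-15h) against control (1 entry), it was 118 with a pseudocount of 0.1, 211 with a minimum of 5 RPKM, 2 with median-ratio scaling, 20 with the replicate block, 0 with no filter or summed entries, and 0 to 5 without 1 embryo. For TSA(0-8h)+VC(8-15h) against TSA(0-8h) (0 entries), it was 195 with a pseudocount of 0.1, 241 with a minimum of 5 RPKM, 4 with median-ratio scaling and 196 with the replicate block. It was 0 to 131 without 1 embryo, the highest without TSA(0-8h)+VC(8-15h) replicate 2. For any TSA against no TSA (2 entries), it was 0 with no filter, no trend or summed entries, 1 with median-ratio scaling and 1 to 4 without 1 embryo. For late VC against no VC (2 entries), it was 4 with a pseudocount of 0.1 or a minimum of 5 RPKM, 1 with no filter or summed entries, 0 with median-ratio scaling or no trend, and 1 to 5 without 1 embryo. The cause of these moves was not tested. These counts are over all entries, and nothing is read from them about Ptma and Npm1, which were chosen for their rise with TSA. Among the other members, Hira alone was counted, between TSA(0-8h)+VC(8-15h) and TSA(0-8h) embryos with a minimum of 5 RPKM. It passed that filter only through the TSA(0-8h)+VC(8-15h) embryos.

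Same-numbered embryos deviated together by correlations of -0.0478 to 0.0309. Whether same-numbered embryos came from the same experiment cannot be told from these values, and the block is given only here. Median-ratio scaling turned Nasp NM_016777 to -1.04 between TSA(0-8h)+VC(8-15h) and TSA(0-8h) embryos and to -0.34 for late VC, and the pool as a covariate turned Npm2 to -0.17 for TSA. In the first of these comparisons that scaling also moved Ptma to -3.12 and Npm1 NM_008722 to -1.06, and summed entries gave -1.61 for Npm1. Leaving out 1 embryo also turned the sign of differences that did not pass the threshold or were not tested. Nasp NM_016777 ranged from -0.93 to 1.05 in that comparison and from -0.37 to 0.58 for late VC, where Nasp NM_001081475 ranged from -0.67 to 1.84, Npm1 NM_001252260 from -0.54 to 1.82 and Ptma from -0.69 to 0.061. Npm1 NM_008722 ranged from -0.13 to 2.12 between TSA(0-8h) and control embryos, from -0.38 to 0.72 between TSA(0-8h)+VC(8-15h) and TSA(0-8h) embryos and from -0.68 to 0.32 for TSA. For TSA, Daxx ranged from -0.83 to 0.50, Hira from -0.41 to 1.41 and Npm2 from -0.82 to 1.26.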
